A study of Homo sapiens with 6 samples.

Results

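Notch signalling was followed at the RNA level through 10 genes, taken from the deposited table by their symbols. They were the receptors NOTCH1, NOTCH2 and NOTCH3, the ligands JAG1, DLL1 and DLL4, and the transcriptional repressors HES1, HEY1, HEY2 and HEYL, out of 35793 genes listed. The cells were untreated cardiomyocytes, made from human iPS cells and taken on day 15 of differentiation. The wild-type group was the unedited WTC11 line, an established human stem cell line, and the knockout group was the STK25KO line, made from WTC11 with CRISPR/Cas9 and homozygous for loss of the serine/threonine kinase STK25. Each genotype had 3 biological replicates, and because the knockout was a single derived line, an effect of the edit and any other difference between the lines cannot be told apart. The labels do not say how many clones or differentiations the replicates came from, so p-values measure the spread between these libraries.

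Notch receptors sit in the membrane and are activated by ligands on neighbouring cells. Cleavage by ADAM proteases and then by gamma-secretase frees the intracellular part of the receptor, which enters the nucleus, joins the DNA-binding protein RBPJ and switches on genes such as the HES and HEY repressors. In the heart, JAG1 and the receptors act in endocardium, valves, outflow tract and vessel walls, HEY1 is known from atrial and HEY2 from compact ventricular myocardium, and HEYL with NOTCH3 from smooth muscle and pericytes.

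The HEY repressors changed between the genotypes in opposite directions, whereas no difference was detected in the receptors or in JAG1. HEY2 fell to 4.33% of its wild-type mean and HEY1 to 22.9%, and HEYL, low in the wild type, rose 5.58-fold in mean. Of the 8 members with a mean of at least 10 normalized counts, the level required for testing, 3 passed the threshold, 1 higher and 2 lower in the knockout. Over all 15536 genes tested 12.8% were called, 5.97% higher and 6.79% lower. A call here is an adjusted p under 0.05 from limma on log2(normalized count + 1), with Benjamini-Hochberg adjustment over all genes tested. All 3 called members differed by at least 2 on the log2 scale. Of the 1982 genes called in all, 867 did so, which is 5.58% of all genes tested. On reads recovered from the deposited values, edgeR called 3 members, again 1 higher and 2 lower (background 12%, with 5.57% higher and 6.42% lower), and DESeq2 called 4, 2 in each direction (background 20.7%, with 10% higher and 10.7% lower). In 4 of the 8 members the genotypes did not overlap, against 33.4% of all genes tested. The median log2 fold change was -0.31 over the 8 members and 0.01 over all genes tested. NOTCH1 and DLL4 stayed under the testing level.

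**Figure D1:**
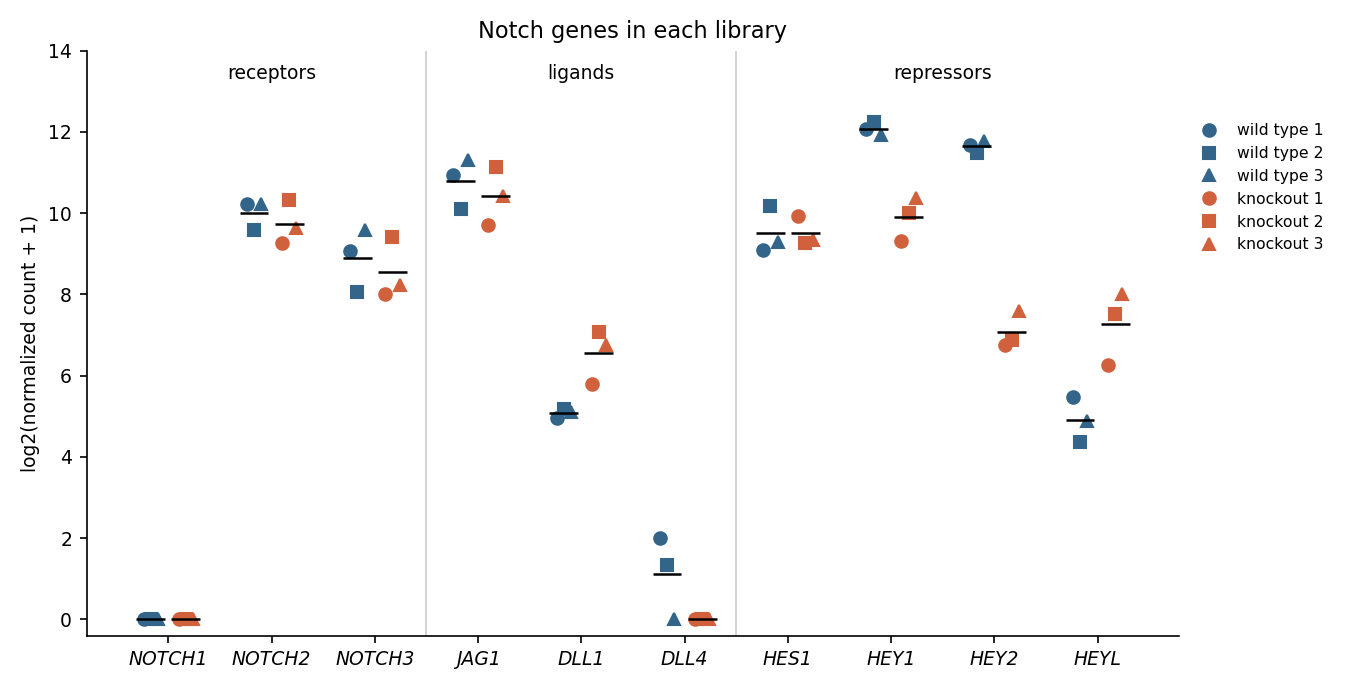
Level of each of the 10 genes in every library, as log2(normalized count + 1), with wild-type libraries in blue, knockout libraries in orange and a bar at the mean of each genotype. The genotypes are apart for HEY1, HEY2, HEYL and DLL1 and overlap for NOTCH2, NOTCH3, JAG1 and HES1.

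The libraries held from 22443904 to 53224112 reads assigned to genes. STK25 itself had 8874, 6774 and 8710 normalized counts in wild-type replicates 1, 2 and 3 and 3906, 3434 and 3820 in the knockout replicates. This log2 fold change of -1.12 (SE 0.19, limma adjusted p = 0.00903) left RNA of the gene in each knockout library. Leaving out wild-type replicate 1 took that adjusted p to 0.0611. On the second principal component, with 24.1% of the variance, wild-type replicate 2 (-62.7) and knockout replicate 1 (-78.4) lay apart from the other 4 libraries, which ran from 16.1 to 59.97. All 10 cardiomyocyte markers, among them TNNT2 and TTN, were above the testing level, and 1 of them, NKX2-5, was called, lower in the knockout. That count was 2, both lower, without wild-type replicate 2, and 3, 2 of them higher, without knockout replicate 1. It was 6 with DESeq2, 4 of them higher, and 8 without both libraries that lay apart, 5 of them higher. Without the 2 outlying libraries 4706 genes were called in place of 1982, or 30.6% of those tested, and 4 members, with DLL1 as the addition.

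Among the ligands, JAG1, which activates Notch receptors on adjacent cells, was the most abundant member of its class. It gave 1977, 1100 and 2541 normalized counts in wild-type replicates 1, 2 and 3 and 831, 2257 and 1378 in the knockout ones. Both genotypes covered much the same range, with the lowest values in the 2 libraries that lay apart on the second component. The log2 fold change was -0.36, with a 95% interval from -1.36 to 0.63 (limma adjusted p = 0.645). The gene occupies chromosome 20 from 10637684 to 10673999, minus strand.

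DLL1, a Delta-type ligand known from early patterning, was far scarcer than JAG1 in both genotypes. It had 30.2, 35.0 and 33.2 normalized counts in the wild-type replicates and 54.7, 135 and 108 in the knockout ones. Every knockout library lay above every wild-type library, as in 16.2% of all genes tested. The log2 fold change of 1.47 (SE 0.46, 95% interval 0.42 to 2.53) missed the threshold after adjustment (limma adjusted p = 0.0764). It passed without knockout replicate 1 (1.85, limma adjusted p = 0.0249), without both outlying libraries (1.89, limma adjusted p = 0.0101), with the trend over transcript length removed (1.497, limma adjusted p = 0.0456) and with DESeq2 (1.59, adjusted p = 0.0104). DLL1 (chromosome 6, 170282206 to 170306565, minus strand) overlaps FAM120B on the opposite strand, and whether counting used strand is not stated.

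DLL4, the Delta ligand of endothelial cells, had at most 2 reads in any library. Wild-type replicates 1 and 2 had 2 reads each and the other 4 libraries had 0, where a count of 0 allows up to 3 reads, or from 1.91 to 3.81 normalized counts depending on the library. No fold was computed. Of the 14 endothelial and endocardial markers, CDH5, TIE1 and ERG were likewise at 3 reads or fewer in every library, whereas EGFL7 had 608 or more reads, KDR 89 or more and PECAM1 17 or more. DLL4 is on chromosome 15, from 40929333 to 40939073, plus strand.

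Of the canonical ligands outside the 10, JAG2, the other Jagged ligand, had a log2 fold change of 0.78 (95% interval 0.22 to 1.34; limma adjusted p = 0.0774). DLL3, which is known to restrain Notch signalling inside the cell that makes it, had 1.09 (0.06 to 2.11; limma adjusted p = 0.158). Neither passed. JAG2 had 858, 721 and 729 normalized counts in the knockout and 352, 463 and 544 in the wild type. All its knockout libraries were above the wild-type ones, as in 16.2% of all genes tested. Of the 6 tested non-canonical ligands, such as DLK1 and MFAP2, limma called 0 (3 had an unadjusted p under 0.05), edgeR 0 and DESeq2 1.

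NOTCH2 was the most abundant receptor in normalized counts. Its values were 1189, 775 and 1193 in wild-type replicates 1, 2 and 3 and 614, 1290 and 790 in the knockout. The highest and the lowest library both belonged to the knockout, and the log2 fold change was -0.27, with a 95% interval from -1.02 to 0.48 (limma adjusted p = 0.653). NOTCH2 (chromosome 1, 119911553 to 120069626, minus strand) has near-identical partial copies whose reads may be split with it. NOTCH2NLA had a mean of 2627 normalized counts in the wild type and 3486 in the knockout, and NOTCH2NLB 1077 and 1573, so the NOTCH2 level is uncertain.

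NOTCH3, the receptor of vascular smooth muscle and pericytes, had 536, 267 and 773 normalized counts in the wild type and 257, 687 and 300 in the knockout. The genotypes overlapped, with a log2 fold change of -0.35 and an interval from -1.50 to 0.80 (limma adjusted p = 0.711). NOTCH3 is on chromosome 19, from 15159038 to 15200981, minus strand. NOTCH4, known from endothelium and not among the 10, had a log2 fold change of -0.37 (limma adjusted p = 0.706).

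NOTCH1 (chromosome 9, 136494433 to 136545786, minus strand) was listed at 0 in all 6 libraries. Among 26 subunits of the proteasome core and RNA polymerase II, genes that every cell uses, 0 were listed at 0. Whether the listed value reflects the cells or the way reads were assigned to this gene was not tested, and no comparison of NOTCH1 was made.

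NOTCH2, NOTCH3 and JAG1 moved together from library to library more than between genotypes. For JAG1 and NOTCH3, wild-type replicates 1 and 3 and knockout replicate 2 were the 3 highest libraries, and these were also the 3 highest for NOTCH2. All 3 genes have long transcripts, the longest protein-coding ones being 5940 bases for JAG1, 11389 for NOTCH2 and 8666 for NOTCH3. Over genes tested, the median log2 deviation of 3954 transcripts of at least 5000 bases less that of 2052 transcripts of at most 1500 bases was 0.33, -0.57 and 0.44 in wild-type replicates 1, 2 and 3 and -0.62, 0.43 and 0.00 in the knockout. The share of this pattern in the 3 genes was not tested. Within a library the ratio of JAG1 to NOTCH2 was 1.42 to 2.13 in wild-type libraries and 1.35 to 1.75 in knockout ones.

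**Figure D2:**
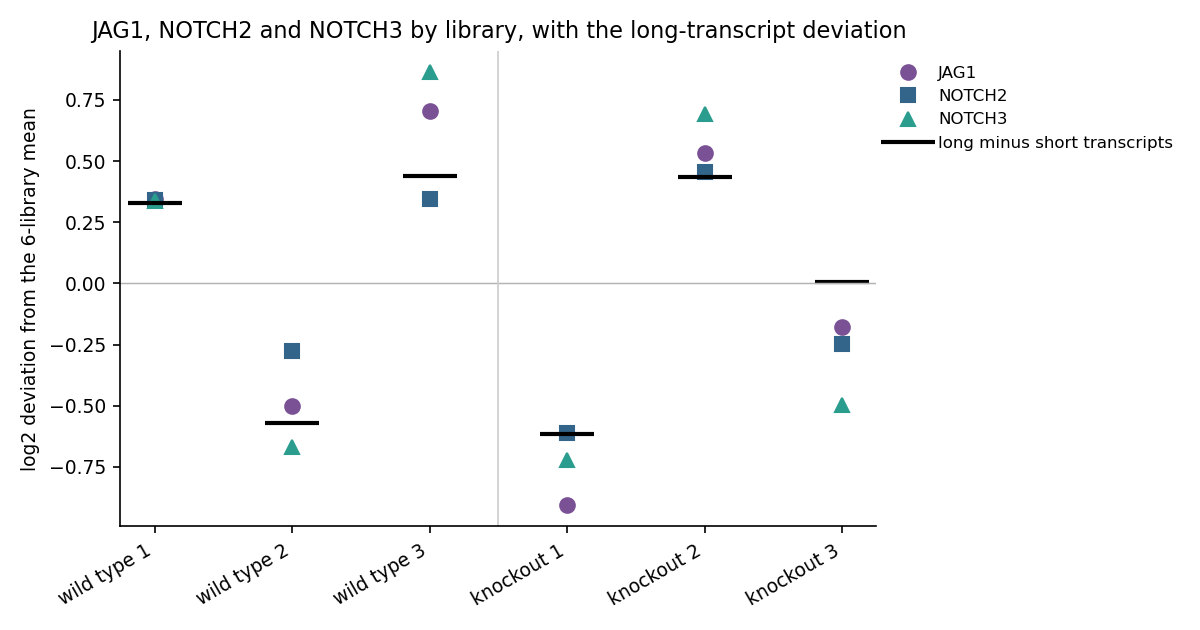
Deviation of JAG1, NOTCH2 and NOTCH3 from their own 6-library mean of log2(normalized count + 1) in each library, with a black bar for the median deviation of long transcripts less that of short ones. The 3 genes and the bar are above 0 in wild-type replicates 1 and 3 and knockout replicate 2, and below 0 in wild-type replicate 2 and knockout replicate 1.

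Of the 26 tested genes of receptor maturation, cleavage and trafficking 2 were called, both lower, against 12.8% of all genes tested and 6.79% lower. This share is about that of all genes. Among the 8 genes of the cleavage step, APH1B, an alternative subunit of gamma-secretase, was the 1 gene called. It had 453, 289 and 481 normalized counts in the wild type and 89.0, 81.4 and 63.1 in the knockout, 3 values far under the wild-type ones, with a log2 fold change of -2.35 (SE 0.33, limma adjusted p = 0.00382). Its paralog APH1A had a log2 fold change of 0.35 (limma adjusted p = 0.513).

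Among the 6 maturation and fringe genes POFUT1, which adds O-fucose to the receptors, fell by 1.16 on the log2 scale (SE 0.30, limma adjusted p = 0.0434). That call was lost when any 1 library other than wild-type replicate 2 was dropped, where adjusted p-values reached 0.173. Of the 12 tested genes of ligand and receptor trafficking, which include the ligand-activating ubiquitin ligase MIB1 and the inhibitor NUMB, limma called 0 (2 had an unadjusted p under 0.05), edgeR 0 and DESeq2 1. A further gene, DTX1, was under the testing level.

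In the nucleus, RBPJ rose while a coactivator fell. RBPJ, the DNA-binding partner of the Notch intracellular domain, had 2016, 1900 and 1850 normalized counts in the wild type and 3513, 3213 and 2995 in the knockout. In all knockout libraries it was above all wild-type ones, as in 16.2% of all genes tested. Its log2 fold change was 0.75 (SE 0.17, limma adjusted p = 0.0277), and with libraries scaled to equal totals it was 0.47 (limma adjusted p = 0.155). The acetyltransferase KAT2B went from 600, 571 and 939 to 184, 329 and 292, a log2 fold change of -1.39 (SE 0.32, limma adjusted p = 0.0292).

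The other 6 activator genes were not called. For the Mastermind coactivators MAML1, MAML2 and MAML3 the log2 fold changes were -0.79, 0.16 and -0.93, with limma adjusted p-values of 0.166, 0.791 and 0.148. For KAT2A, EP300 and SNW1 they were -0.50, -0.41 and -0.05, with limma adjusted p-values of 0.195, 0.352 and 0.896. Among 13 tested genes listed as corepressors 3 were called (23.1%, against 12.8% of all genes tested), all of the Groucho family. HES proteins recruit this family to silence their targets. The list also holds SHARPIN, which is not an established corepressor of this pathway and was not called. TLE4 and TLE3 rose by 1.24 and 1.14, and TLE2 had a log2 fold change of -1.09 (limma adjusted p = 0.0143, 0.0422 and 0.0323). The RBPJ and TLE2 calls were lost without any 1 library other than knockout replicate 1, the TLE3 call without any 1 library, and those for KAT2B and TLE4 if replicate 1 or 3 of the wild type, or replicate 3 of the knockout, was dropped. Over the 5 genes these adjusted p-values reached 0.154.

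**Figure D3:**
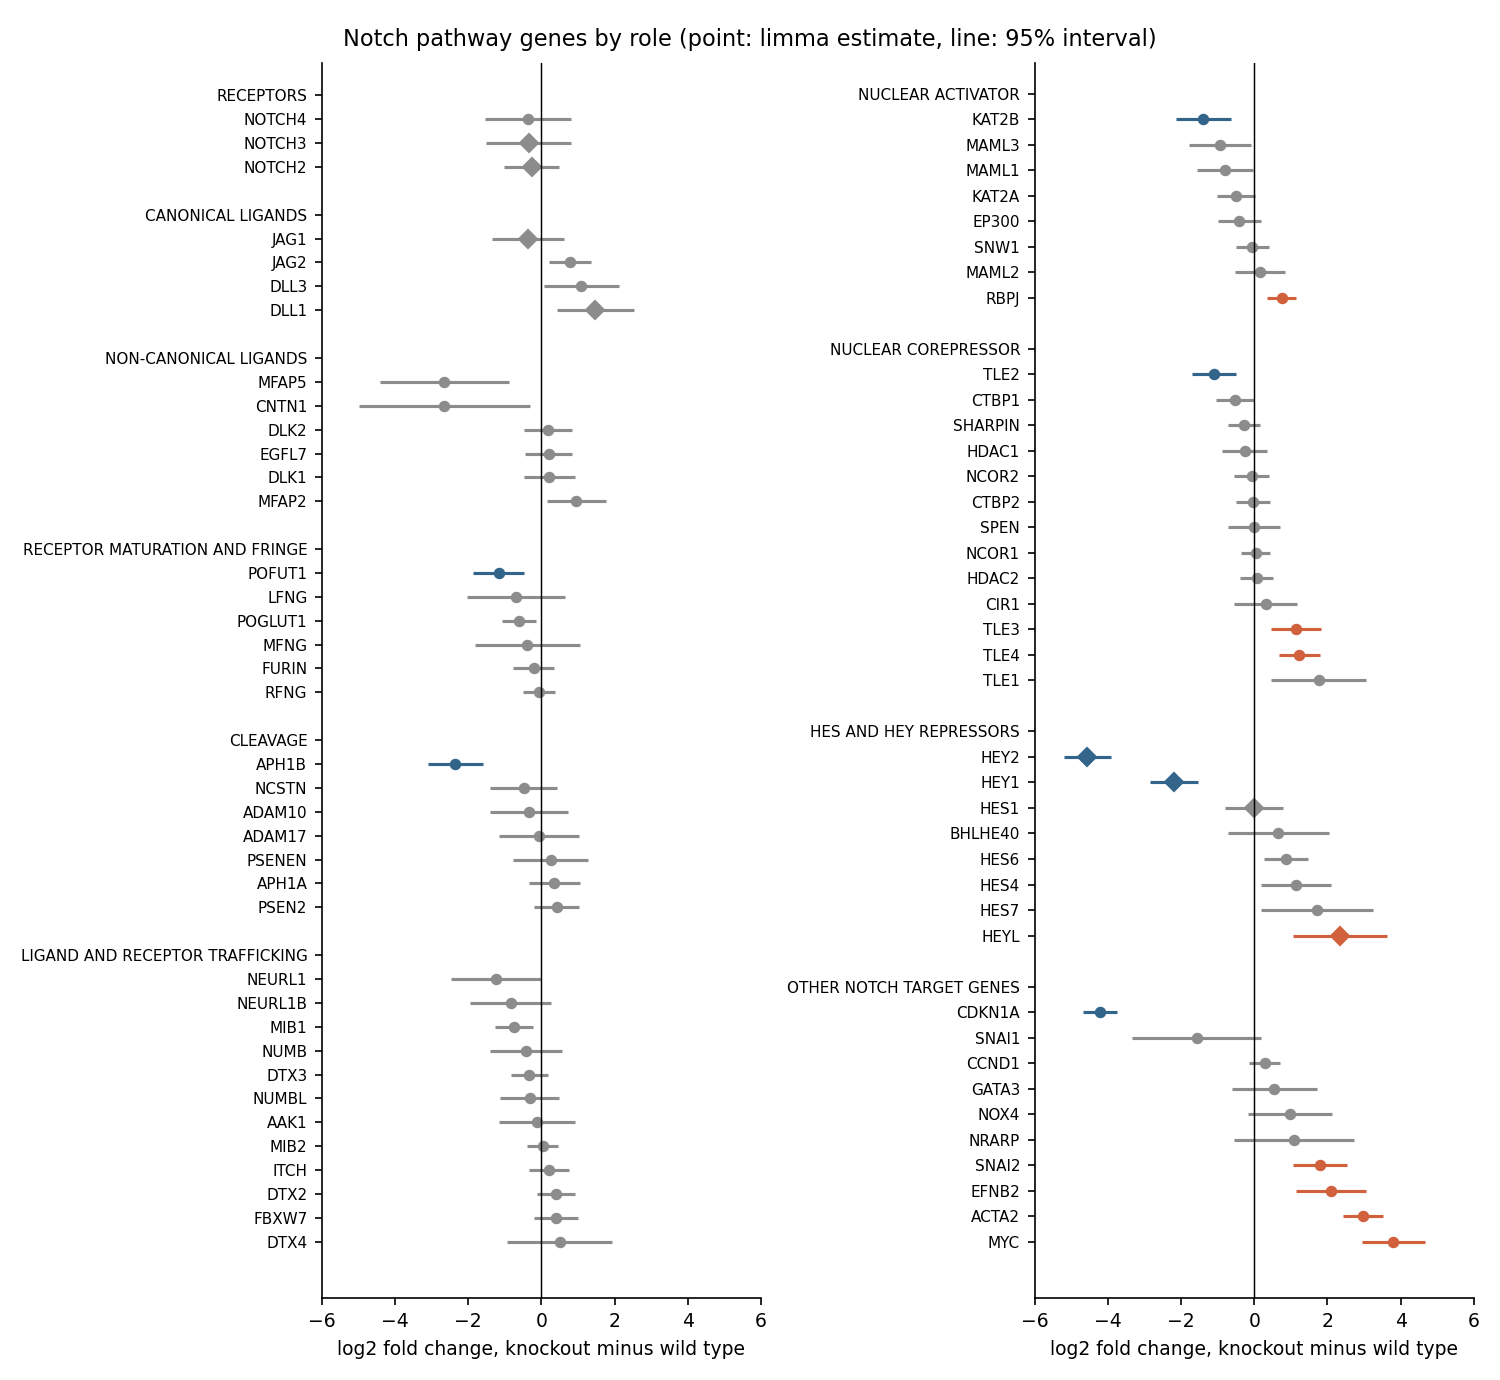
Log2 fold change of the tested Notch pathway genes reported here, knockout minus wild type, grouped by role, with the limma estimate as a point and its 95% interval, unadjusted for the number of genes, as a line; diamonds are members of the 10, orange genes were called higher, blue lower and grey not called. The receptors and JAG1 span 0, and HEY2, HEY1 and HEYL lie on opposite sides of it.

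The HES and HEY genes encode basic helix-loop-helix repressors and are the best known direct outputs of the pathway. Promoter stretches of HES1, HEY2 and HEYL are shown because they share the word bound by RBPJ, which was searched as GTGGGAA or, on the other strand, TTCCCAC. RefSeq windows on GRCh38.p14 from 250 bases before to 50 after the start of transcription were found for 8 of the 10 members; HEY1 and DLL1 had no entry. The word was in 3 of the 8 windows and in 6.25% of all 35116 windows. Capitals mark the word, or its shorter core TGGGAA or TTCCCA, found in 24% of all windows, where it stands without the leading G or trailing C. HES1 is on the plus strand (chr3:194135898-194136144), HEY2 on the plus strand (chr6:125749382-125749579 and, around the start site, chr6:125749616-125749645), and HEYL on the minus strand (chr1:39639804-39639833 and chr1:39639725-39639754). Each is written 5′ to 3′.
HES1 upstream: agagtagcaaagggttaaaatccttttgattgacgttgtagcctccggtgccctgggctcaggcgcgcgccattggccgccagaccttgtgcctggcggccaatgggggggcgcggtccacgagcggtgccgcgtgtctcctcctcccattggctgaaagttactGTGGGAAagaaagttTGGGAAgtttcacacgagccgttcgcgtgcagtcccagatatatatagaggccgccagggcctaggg
HEY2 upstream: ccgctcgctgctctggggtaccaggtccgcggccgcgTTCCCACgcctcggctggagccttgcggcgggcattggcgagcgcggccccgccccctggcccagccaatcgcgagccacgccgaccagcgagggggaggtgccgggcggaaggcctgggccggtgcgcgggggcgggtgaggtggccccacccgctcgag
HEY2 start site: cagagttgcggcGTGGGAAagagccgctag
HEYL distal: ccgcctagggccTTCCCACggctcggcggc
HEYL proximal: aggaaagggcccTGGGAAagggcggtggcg

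Counting from the RefSeq start of transcription, the word began at -85 in HES1, with a further core at -70. In HEY2 it began at -213, on the opposite strand, and at -4. In HEYL it began at -178, on the opposite strand, with a core at -99. The HEY2 and HEYL stretches shown lie inside the spans that GENCODE 29 gives these genes. By that annotation they are not upstream of the gene. The E-box CACGTG, which many helix-loop-helix proteins bind, was in 0 of the 8 windows and in 7.26% of all windows. The related word CACGCG, or CGCGTG on the other strand, was in 3 of the 8, those of DLL4, HES1 and JAG1, and in 11.4% of all windows. The 3 genes that share the word differed in direction, with HEY2 lower, HEYL higher and HES1 not called. A match is a description of the letters and not of binding.

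HEY2, a repressor of compact ventricular myocardium, had the largest difference of the 8 members tested. The wild-type replicates had 3276, 2871 and 3533 normalized counts and the knockout replicates 108, 117 and 194. The genotypes were far apart, and the highest knockout library stood at 194 against 2871 in the lowest wild-type one. HEY2 fell by 4.57 on the log2 scale (SE 0.28, 95% interval -5.20 to -3.93; limma adjusted p = 0.000177), and 0.985% of all genes tested had a log2 fold change at least as low. A two-sided exact permutation test over the 3 and 3 libraries gave p = 0.1, the smallest p this design allows. The knockout libraries had 85 or more reads of HEY2 each. HEY2 spans chromosome 6 from 125747664 to 125761269.

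HEY1, its paralog known from atrial myocardium, was lower too, by less. The wild-type replicates had 4296, 4862 and 3910 normalized counts and the knockout replicates 639, 1033 and 1320. All knockout libraries were under all wild-type ones, as in 17.2% of genes tested, and knockout replicate 1 was the lowest. HEY1 fell by 2.18 on the log2 scale (SE 0.28, 95% interval -2.84 to -1.53; limma adjusted p = 0.00295). Leaving out single libraries gave values from -2.41 to -1.89 with adjusted p-values up to 0.0201. HEY1 lies on chromosome 8 from 79764010 to 79767863, minus strand.

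HEYL, the HEY gene of smooth muscle and pericytes, was scarce in the wild type. It had 43.8, 19.8 and 28.7 normalized counts there and 76.3, 184 and 255 in the knockout. The knockout libraries were above the wild-type ones, as in 16.2% of all genes tested, and spread over more than 3-fold. HEYL rose by 2.35 on the log2 scale (SE 0.55, 95% interval 1.07 to 3.63; limma adjusted p = 0.0307). The call was lost with equal totals (2.07, limma adjusted p = 0.0701) and when any 1 library other than knockout replicate 1 was left out, where adjusted p-values reached 0.117. HEYL is on chromosome 1, from 39624153 to 39639945, minus strand.

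HES1, a repressor found in many tissues and driven by Notch and by other signals, showed no detectable difference. It had 544, 1165 and 627 normalized counts in the wild type and 976, 612 and 645 in the knockout, with the highest values in the 2 libraries that lay apart on the second component. The log2 fold change was -0.01, with a 95% interval from -0.81 to 0.78 (limma adjusted p = 0.986). Its sign was not stable: it was 0.01 with equal upper quartiles and 0.11 without both outlying libraries. HES1 spans chromosome 3 from 194136145 to 194138732, plus strand.

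The other tested members of the HES family, HES4, HES6 and HES7, were not called. Their log2 fold changes were 1.14, 0.87 and 1.72, with limma adjusted p-values of 0.114, 0.0643 and 0.136. HES6, which is known to oppose HES1, had 424, 515 and 345 normalized counts in the wild type and 947, 653 and 752 in the knockout. All its knockout libraries were higher, as in 16.2% of all genes tested. HES5, HES2, BHLHE41 and HELT were under the testing level. BHLHE40, a related repressor, had 0.66 (limma adjusted p = 0.537). Of these 4 tested genes limma called 0 (3 had an unadjusted p under 0.05), edgeR 0 and DESeq2 2. HES4 and HES6 each passed the threshold in 3 of the 20 alternatives.

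The balance among the HEY genes was measured within each library, since a ratio of this kind does not depend on scaling between libraries. The log2 ratio of HEY1 to HEY2 was 0.43 ± 0.31 (SD, n = 3) in wild-type libraries and 2.82 ± 0.29 (SD, n = 3) in knockout ones. The ratio itself was 1.31, 1.69 and 1.11 in the wild-type replicates and 5.92, 8.83 and 6.81 in the knockout, so HEY1 exceeded HEY2 in every library and by more in each knockout one. The difference of 2.38 on the log2 scale was larger than the spread between replicates, with p = 0.1 in an exact two-sided permutation test, the smallest possible.

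HEYL was at 0.0134, 0.00690 and 0.00813 of HEY2 in the wild type and at 0.706, 1.57 and 1.32 in the knockout. Per kilobase of the longest protein-coding transcript, HEY2 made up 39.4%, 33.6% and 43.5% of the summed HEY level in the wild type and 11.9%, 8.03% and 10.1% in the knockout. HEYL made up 0.385%, 0.169% and 0.259% against 6.13%, 9.24% and 9.72%. The sum of the 3 genes was 3106, 3195 and 3030 normalized counts per kilobase in the wild type and 340, 544 and 717 in the knockout. On log2 of the summed normalized counts it was lower by 2.61 (an exact permutation test gave p = 0.1).

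**Figure D4:**
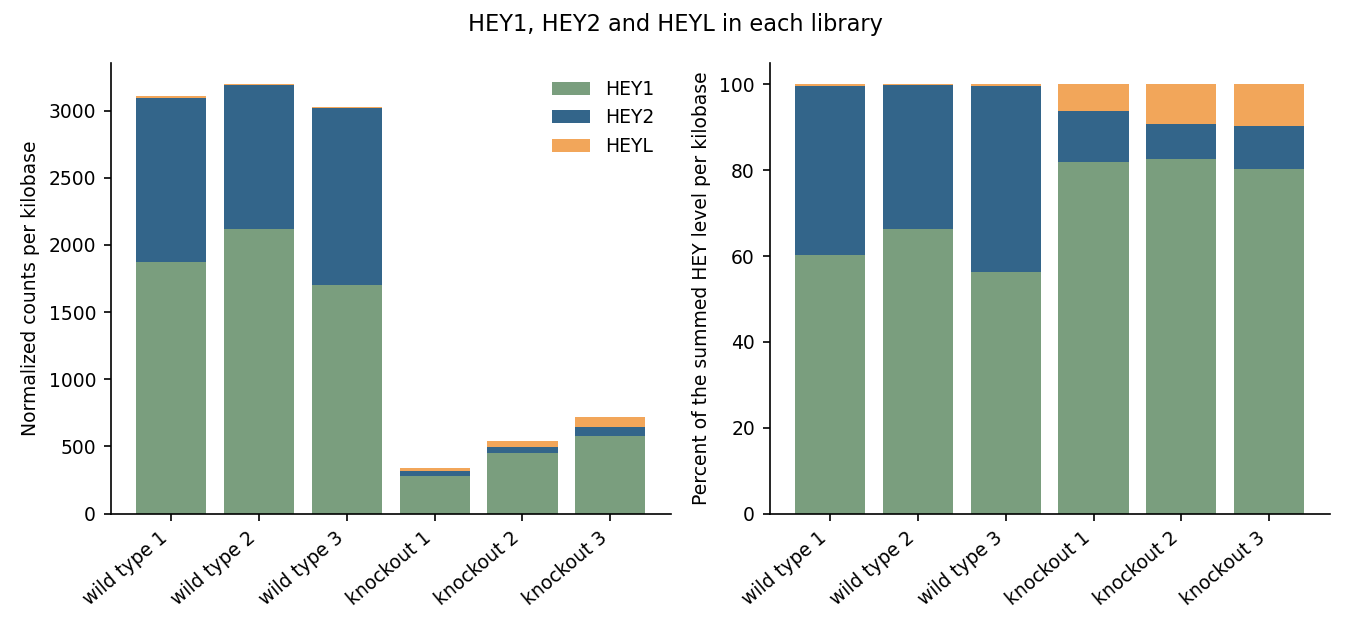
Left, HEY1, HEY2 and HEYL in each library as stacked normalized counts per kilobase of the longest protein-coding transcript; right, the percent that each contributed to their sum. The sums are 3030 to 3195 in the wild type and 340 to 717 in the knockout, and HEY2 shrinks from 33.6% or more to 11.9% or less.

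On the same per-kilobase scale, wild-type levels descended from HEY1 (1897 ± 209, SD, n = 3) and HEY2 (1205 ± 125) to HES1 (493 ± 214), JAG1 (315 ± 122), NOTCH2 (92.4 ± 21.1), NOTCH3 (60.6 ± 29.3), DLL1 (10.3 ± 0.77) and HEYL (8.41 ± 3.31). In this order HES1 with JAG1, NOTCH2 with NOTCH3 and DLL1 with HEYL overlapped in their libraries. In the knockout HES1 came first (472 ± 128, SD, n = 3), ahead of HEY1 (434 ± 149), JAG1 (251 ± 121), NOTCH2 (78.8 ± 30.8), HEY2 (52.1 ± 17.6), NOTCH3 (47.8 ± 27.3), HEYL (46.9 ± 24.6) and DLL1 (31.2 ± 12.9). HEY1 overlapped both HES1 and JAG1 there, whereas every HES1 library was above every JAG1 library. Each of the last 5 overlapped its neighbour. HEY2 went from the 84.7th to the 31.7th percentile of tested genes and HEY1 from the 89.6th to the 69.2nd. NOTCH2 depends on the transcript taken: with the middle one of its annotated protein-coding lengths it was 209 per kilobase in the wild type and overlapped JAG1.

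Genes known to respond to Notch outside the HES and HEY families moved in both directions. Of 10 such genes 5 were called, 4 higher and 1 lower, against 12.8% of all genes tested. CDKN1A, the cell cycle inhibitor p21, had 21874, 21721 and 24553 normalized counts in the wild type and 985, 1403 and 1302 in the knockout, a log2 fold change of -4.22 (SE 0.20, limma adjusted p = 6.44e-05). MYC, a growth-promoting transcription factor, had 36.3, 31.2 and 65.1 in the wild type and 472, 671 and 669 in the knockout, a log2 fold change of 3.80 (SE 0.37, limma adjusted p = 0.000968).

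Both genes showed no overlap between the genotypes, as in 33.4% of all genes tested. EFNB2, an ephrin of arterial and trabecular cells, rose by 2.09 (SE 0.41, limma adjusted p = 0.0159), SNAI2 by 1.80 (SE 0.32, limma adjusted p = 0.0105) and ACTA2, smooth muscle actin, by 2.98 (SE 0.24, limma adjusted p = 0.00042). Without knockout replicate 3 the count of 5 became 3: the EFNB2 call was lost without wild-type replicate 1 or knockout replicate 3 and the SNAI2 call without knockout replicate 3. NRARP, a feedback inhibitor that Notch induces directly, had 6.04, 32.0 and 31.3 normalized counts in the wild type and 29.2, 49.0 and 47.1 in the knockout (log2 fold change 1.09, limma adjusted p = 0.374). All these genes also answer to pathways other than Notch.

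Over the whole pathway, leaving out the 10, 77 genes were listed and 70 tested. Of these 12 were called (17.1%, against 12.8% of all genes tested), 7 higher and 5 lower, with a median log2 fold change of 0.01. Without both outlying libraries 24 were called, 13 higher and 11 lower, in a fit that called 30.6% of all genes, and with 1 library left out the count was 5 when this was replicate 1 of the wild type, 6 when it was replicate 3 of the wild type, and 4 when it was replicate 3 of the knockout.

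HEY2 and HEY1 were set beside lists of myocardial genes, since the HEY genes are used as markers of heart regions. Of 11 compact myocardium genes 8 fell and 0 rose, HEY2 itself among them, against 6.79% lower over all genes tested, with a median log2 fold change of -3.09 against 0.01. The others were MYL2, MYCN, GJA1, PRDM16, IRX4, NKX2-5 and CCND2. NKX2-5 was also among the cardiomyocyte markers, and the list cannot separate compact from other ventricular myocardium. MYL2, the ventricular myosin light chain, had 14296, 15833 and 14249 normalized counts in the wild type and 338, 79.1 and 109 in the knockout. PRDM16, a transcription factor of compact myocardium, had 340, 407 and 374 against 10.2, 17.8 and 16.9, a log2 fold change of -4.59 (SE 0.37, limma adjusted p = 0.000445).

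MYCN, a growth regulator of the embryonic heart, had 3649, 2389 and 3876 in the wild type and 20.3, 183 and 127 in the knockout (log2 fold change -5.35, SE 0.74, limma adjusted p = 0.00374). The remaining 3 compact genes were not called, and the CCND2 call was lost when replicate 1 or 3 of the wild type or replicate 3 of the knockout was dropped. Across 12 trabecular genes 2 rose and 5 fell, against 5.97% and 6.79% of all genes tested. CITED1 and EFNB2 were the higher ones, and the lower ones included GJA5, NPPA, SEMA3A and ERBB2. The count of 7 became 3 when replicate 3 of the knockout was dropped, and 4 when replicate 1 or 3 of the wild type or replicate 2 of the knockout was. The ERBB2 call was lost when any 1 library other than wild-type replicate 2 was dropped, and the CITED1 call without replicate 3 of the wild type or replicate 2 or 3 of the knockout. GJA5, the gap junction protein connexin 40, was at 1072, 820 and 1171 normalized counts in the wild type and at 0, 0 and 3.56 in the knockout.

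Among 17 tested atrial and nodal genes 3 rose and 3 fell, against the same 5.97% and 6.79%. Called or not, 12 had a positive and 5 a negative log2 fold change, with a median of 0.87 against 0.01 over all genes tested. DESeq2 called 13 of them, 8 higher and 5 lower, where it called 20.7% of all genes. Among those that rose were ISL1, a progenitor and sinus node factor, by 3.82 (SE 0.26, limma adjusted p = 0.000225) and NR2F2, an atrial transcription factor, by 3.59 (SE 0.59, limma adjusted p = 0.00818). KCNA5 and NPPA were among those that fell, KCNA5, an atrial potassium channel, with a log2 fold change of -1.93 (SE 0.25, limma adjusted p = 0.00307). HEY1, known from atrial myocardium, fell in the same libraries. Without both outlying libraries 12 atrial and nodal genes were called, 7 higher and 5 lower, where 30.6% of all genes were.

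**Figure D5:**
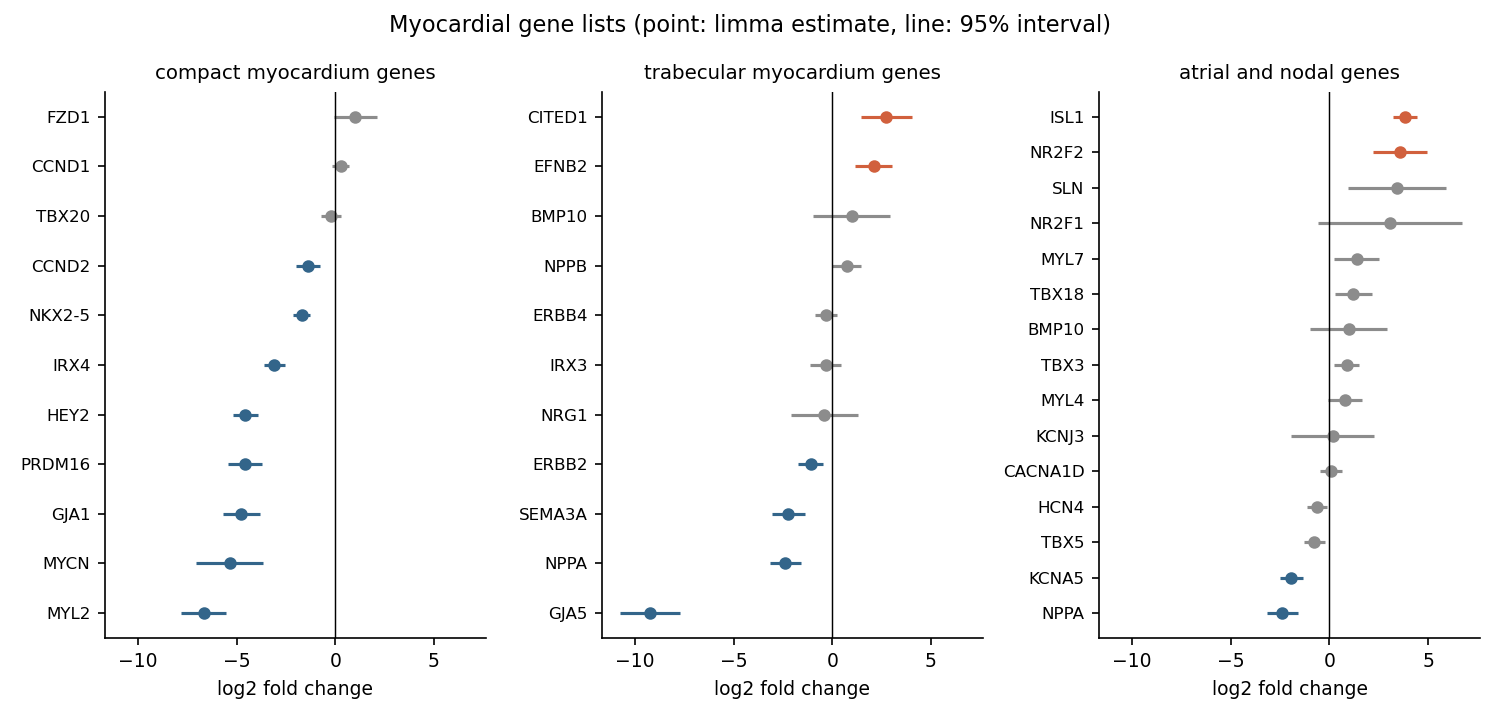
Log2 fold change, knockout minus wild type, of the tested genes reported here from the compact, trabecular, and atrial and nodal lists, with the limma estimate as a point and its 95% interval as a line; orange genes were called higher, blue lower and grey not called. HEY2 lies in the middle of the compact genes that fell, with MYL2 the lowest of them.

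Markers of other cells that use these Notch genes were measured in the same libraries, and in bulk RNA fewer cells of a type and less RNA per cell cannot be told apart. Of 10 tested mural and smooth muscle markers 4 rose, namely MYH11, ACTA2, TAGLN and CNN1, and 0 fell, against 5.97% and 6.79% of all genes tested. The CNN1 call was lost when any 1 library other than knockout replicate 1 was dropped, and without both outlying libraries 6 mural markers were called higher and 1 lower. The summed level was 91139 to 100960 normalized counts in wild-type libraries and 501557 to 548078 in knockout ones. ACTA2 was the largest part of this sum, with means of 49466 in the wild type and 389103 in the knockout. MYH11, smooth muscle myosin, had 314, 152 and 295 in the wild type and 7561, 9796 and 8121 in the knockout, all far higher, in the libraries in which HEYL was higher. The other 6 tested markers were not called. PDGFRB, a receptor of mural cells and fibroblasts, had 30.2, 25.9 and 51.7 normalized counts in the wild type and 107, 466 and 91.5 in the knockout. All its knockout libraries were higher, as in 16.2% of all genes tested. Its log2 fold change was 2.24 (limma adjusted p = 0.0658), and MCAM had a log2 fold change of 0.87. CSPG4 had -1.68, and RGS5, KCNJ8 and ABCC9 had -0.13, 0.10 and 0.13. NDUFA4L2 had at most 4.44 normalized counts. The part of these cells in the HEYL result was not tested.

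Of 14 endothelial and endocardial markers 7 were under the testing level and 1 of the other 7, ESAM, was called, higher. ESAM, a junction protein, had 16.6, 5.33 and 18.5 normalized counts in the wild type and 754, 614 and 769 in the knockout. The summed level of the 14 was 1516 to 1754 in the wild type and 2467 to 3122 in the knockout. EGFL7, not called, was the largest part of this sum, with means of 1017 in the wild type and 1203 in the knockout. The means of ESAM were 13.5 and 712. Of 11 neural markers, of interest because DLL1 and DLL3 are also neural genes, 4 were tested and 7 were under the testing level. Of the 4, 3 rose, SOX2, PAX6 and TUBB3, against 5.97% higher over all genes tested. SOX2 and PAX6 had wild-type means of 1.91 and 4.22 normalized counts and reached the testing level only through their knockout values. SOX1, NEUROG1 and NEUROG2 had at most 3 reads in every library. The PAX6 call was lost whichever 1 library was dropped, with limma adjusted p-values up to 0.127. The summed neural level, 4542 to 7871 in the wild type and 7082 to 16900 in the knockout, was nearly all NES, which alone had 4502 to 7747 and 6481 to 16198 and was not called (limma adjusted p = 0.34). The part of such cells in the DLL1 values was not tested. Among 8 fibroblast markers 3 rose, COL3A1, DCN and TCF21, and 1 fell, COL1A2, against 12.8% of all genes called. The count of 4 became 2 when replicate 1 of the wild type or replicate 3 of the knockout was dropped, and 8 without both outlying libraries. Their sum, 12950 to 26529 in the wild type and 8205 to 16655 in the knockout, was mostly COL1A1 and COL1A2 in the wild type, with means of 10227 and 7514 there and 4792 and 240 in the knockout. Among 6 tested epicardial markers 1 rose, ALDH1A2, among 4 endoderm markers 1 fell, AFP, and among 5 pluripotency markers limma called 0 (3 had an unadjusted p under 0.05), edgeR 0 and DESeq2 1. The ALDH1A2 call was lost without knockout replicate 3 (the highest adjusted p over its alternatives was 0.066).

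The genes whose pattern over the 6 libraries was most like that of a member were found by Pearson's r of log2(normalized count + 1), outside the lists used here, as a description of libraries that share genotype and depth. For HEY2 they were SMARCD3 (r = 0.9993), ST3GAL1 (0.9990) and ZFP28 (0.9985), and 569 genes had r over 0.95. The size of the change differed among them, since r does not use it: SMARCD3, a cardiac chromatin remodelling subunit, went from a mean of 10535 to 5437 normalized counts, and ZFP28, a zinc finger protein, from 302 to 0.30. For HEY1 they were AAAS, PGGHG and PON2, for HEYL LGMN, SRSF4 and ATP6V1H, and for DLL1 PSPH, STRAP and ADAMTS18. For JAG1 they were ARHGAP12, RBM15B and EEF1AKNMT, for NOTCH2 TRPM7, USP7 and ZKSCAN8, for NOTCH3 AKAP8, RCAN3 and BMPR2, and for HES1 C1D, FGF7P3 and MOSPD3; limma called none of these 12.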

How the data were processed

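RNA of 6 libraries was compared, 3 per genotype. The authors deposited 1 normalized count per gene symbol and library, a signal whose columns were matched to samples by the names the labels give; 0 columns were left unused. Per the submitters' processing notes, bcl2fastq 2.19, kallisto 0.44.0 and DESeq2 1.28.1 and the GRCh38 build were used; annotation and strand setting are not given in the sources used here. Per the labels' protocols, cDNA came from a Clontech Ultra Low kit and libraries from NexteraXT. In every column 100% of the values were whole multiples of 1 step (tolerance 0.001 reads). Dividing by the step gave whole counts, called reads here, which after kallisto may be rounded estimates. How reads of similar genes were split is not stated.

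Tests used limma 3.58.1 in R 4.3.3 with a trend, on log2(value + 1), for the genes averaging 10 or more; 95% intervals and SEs are limma's. Fold changes on this scale understate changes of low genes. edgeR 4.0.16 and DESeq2 1.42.0 on recovered reads, other pseudocounts (0.1, 10), filters (none, 50), scalings, a replicate block, and leaving out each library were alternatives. Leaving out both outlying libraries and removing each library's trend over transcript length (97.7% of tested genes had a length) were added after seeing the data. The floor of 3 reads covers counting error alone. The fits were tested on simulated data. Positions and lengths came from GENCODE 29 on GRCh38, and sequences from RefSeq. Named were the 10 members, called pathway and myocardial genes, the receptors, ligands, nuclear activators and HES genes, and the 3 most alike genes per member. NRARP, APH1A, MIB1, NUMB, SHARPIN, FAM120B, the NOTCH2 copies and marker genes were named after their values were seen. The members and lists were chosen with earlier results of these data known. Figures used Python 3.11.15 and matplotlib 3.10.9. A few genes counted in the lists are not reported here by name or drawn.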

Additional observations from a re-analysis of the deposited data

How the results depend on the processing

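HEY1, HEY2, APH1B, CDKN1A and MYC kept direction and call under all 20 alternatives, HEY2 between -4.85 and -4.41 and HEY1 between -2.46 and -1.81; the HEY1 to HEY2 ratio difference ran from 2.23 to 2.68 over its 11. Equal totals lowered the median of all genes from 0.01 to -0.28. HES1 turned positive with equal upper quartiles (0.0098), quantile normalization (0.055), without both outlying libraries (0.11) and with 1 library left out (range -0.23 to 0.32). Also reversed, none of them called, were MAML2 with equal totals (-0.12), SNW1 and BHLHE40 without both outlying libraries (0.14 and -0.031), NOTCH4 with 1 library left out (-0.69 to 0.024) and SNW1 likewise (-0.13 to 0.079). The cause was not tested.

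All genes called numbered 3210 with DESeq2, 4706 without both outlying libraries and 792 to 2192 with 1 library left out; pathway genes called numbered 19, 24 and 4 to 11 in turn, and members called 2 to 4. For libraries sharing a replicate number, deviations from the genotype means correlated at -0.23, -0.40 and 0.17. With 3 libraries a genotype, 1 of them outlying in each, this cannot show whether the samples were paired. With the replicate block 798 genes, 5 pathway genes and 2 members were called, HEY1 and HEY2; STK25 kept -1.12 (limma adjusted p = 0.0684). STK25 ran from -1.24 to -1.05 with 1 library left out. With 3 libraries a genotype, DLL4 and NOTCH1 were at or under the floor of 3 reads.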
